A study of Mus musculus with 15 samples.

Results

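The nuclear profiles (NPs) described here are 7 slices, each of 1 nucleus, in which 1000 or more genomic windows of 40 kb were called positive, out of 15 slices in the segregation table. They were chosen by their number of positive windows, and they are named f13a6, f13e1, f13e5, f13g3, f14c2, f14f2 and f14g4, as in the labels. All 15 slices come from mouse embryonic stem cells of the 46C line, a Sox1-GFP knock-in derived from E14tg2a cells of strain 129/Ola and kept before harvest in serum-free medium, and none passed the quality control of the study. There is 1 cell line, no treatment and 1 group, and the labels do not tie the slices to separate cultures, so a p-value below measures only the spread between slices.

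Genome architecture mapping (GAM) cuts thin cryosections through fixed cells, isolates the slice of a single nucleus by laser and sequences the DNA it holds. In an interphase nucleus each chromosome fills its own territory, so that a thin slice runs through some territories and misses others, and loci that lie close together in space tend to fall in the same slice. A chromosome that is cut therefore leaves patches of positive windows along its length, and a chromosome that is missed leaves none. Both homologues map to the same windows, so a slice through either copy, or through both, gives the same kind of patch.

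The 7 slices held 1942 (f13a6), 2848 (f13e1), 1159 (f13e5), 2742 (f13g3), 1967 (f14c2), 1458 (f14f2) and 1470 (f14g4) positive windows. The slice just inside the limit was f13e5 with 1159 windows, and the slice just outside it was f13g2 with 696. Autosomal coverage, the percentage of windows on chromosomes 1 to 19 that were positive, was 2.94% ± 1.02 (SD, n = 7) and ran from 1.85% in f13e5 to 4.34% in f13e1. The table holds calls without read counts, so the depth behind a call is unknown and no counting error can be given for a single window.

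The chromosomes of 1 slice differed widely in coverage. An autosome was counted as cut where a slice held at least 1 stretch of 5 or more consecutive positive windows on it (200 kb). By this measure f13a6 cut 8 of the 19 autosomes, f13e1 cut 14, f13e5 cut 3, f13g3 cut 12, f14c2 cut 8, f14f2 cut 5 and f14g4 cut 7. Were the same number of positive windows placed at random within each chromosome of each slice, the exact expected number of cut autosomes would be between 0.0186 in f13e5 and 0.145 in f13e1. The expectation keeps the number of windows on each chromosome, so that the difference lies in how they were arranged along it.

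**Figure D1:**
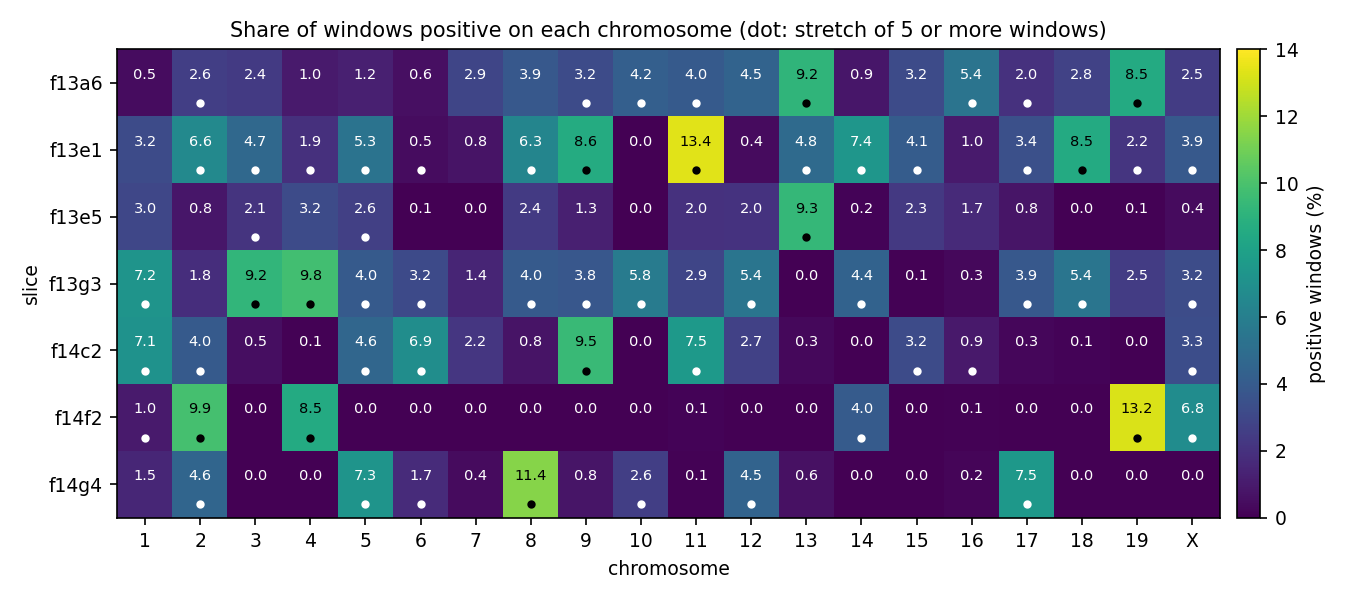
Percentage of 40 kb windows positive (colour and printed value) on each chromosome (columns) of each of the 7 slices (rows), where a dot marks a chromosome with a stretch of 5 or more consecutive positive windows. Slice f14f2 reached 9.86% on chromosome 2 and 13.2% on chromosome 19 beside empty chromosomes, whereas every autosome of f13a6 held windows.

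Slice f14f2 showed the sharpest contrast. Its 448 windows on chromosome 2, 332 on chromosome 4, 203 on chromosome 19, 126 on chromosome 14 and 50 on chromosome 1 made up 98.8% of its autosomal windows. Each of the other 14 autosomes held between 0 and 4 windows, and chromosomes 6, 7, 8 and 15 held none. Chromosome X, with 283 windows and a coverage of 6.79%, was also cut in this slice. Coverage reached 13.2% on chromosome 19, the highest of any autosome in that slice, and 9.86% on chromosome 2.

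Slice f14g4 covered 11.4% of chromosome 8 (377 windows), 7.47% of chromosome 17 (178 windows) and 7.26% of chromosome 5 (277 windows). It held no window on chromosomes 3, 15, 18 and 19 and 1 window on each of chromosomes 4, 14 and X. Slice f14c2 covered 9.48% of chromosome 9 (294 windows), 7.52% of chromosome 11 (229 windows) and 7.14% of chromosome 1 (352 windows), with no window on chromosomes 10, 14 and 19. In both slices the 5 fullest autosomes held most of the autosomal windows, 80.2% in f14g4 and 71.8% in f14c2.

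Slice f13e1 had the highest coverage of a single autosome among the 7, with 408 windows and 13.4% of chromosome 11, followed by 8.64% of chromosome 9 and 8.55% of chromosome 18. Chromosome 10 held a single window in f13e1, and chromosome 12 held 13. Slice f13g3 covered 9.77% of chromosome 4 (380 windows), 9.22% of chromosome 3 (368 windows) and 7.24% of chromosome 1 (357 windows), and held no window on chromosome 13 and 2 on chromosome 15. The slices that were richest in windows therefore also left chromosomes nearly empty.

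The other 2 slices spread their windows in different ways. In f13a6 every autosome held at least 20 windows, from 21 on chromosome 6 to 276 on chromosome 13, and the 5 fullest autosomes held 44.2% of the autosomal windows, the lowest share of the 7 slices. In f13e5 chromosome 13 held 280 windows (9.31%) and stood apart from every other autosome, the next being chromosome 4 at 3.19%, while chromosomes 7, 10 and 18 held none. The 4 long stretches of f13e5, on chromosomes 3, 5 and 13, were all exactly 5 windows long, so its 3 cut autosomes rest on stretches at the limit. Of its autosomal windows, 59.4% lay on autosomes without a long stretch, against 1.19% in f14f2.

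**Figure D2:**
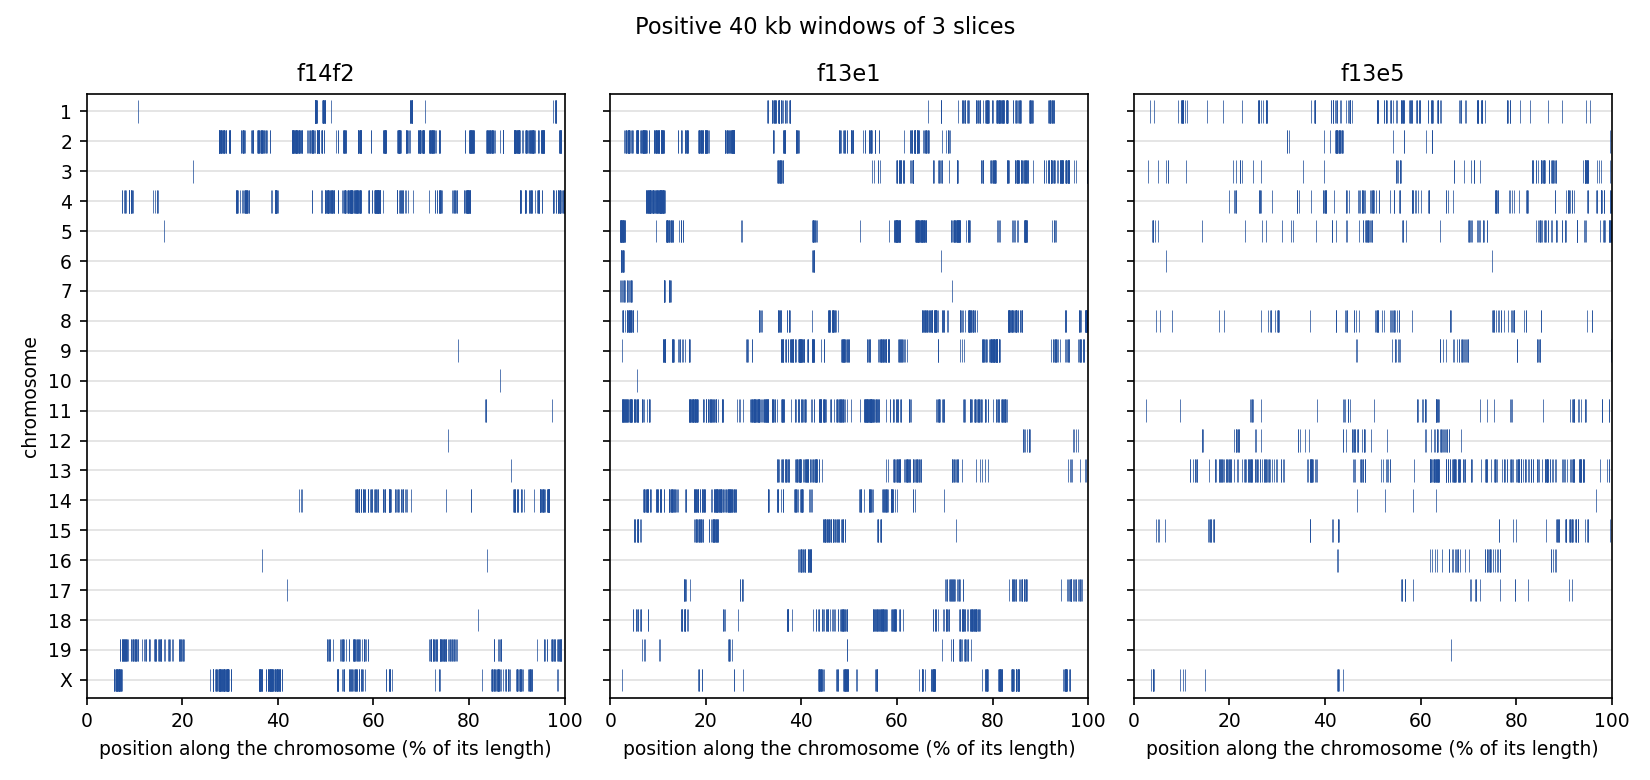
Positive 40 kb windows (vertical ticks) along each chromosome, with position as a percentage of chromosome length, in f14f2, f13e1 and f13e5. In f14f2 the ticks fill patches of chromosomes 1, 2, 4, 14, 19 and X, in f13e1 they form dense patches on most chromosomes, with all 75 ticks of chromosome 4 in 1 patch, and in f13e5 chromosome 13 holds 280 ticks, and 24 of the 38 ticks of chromosome 2 lie in 1 patch.

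Over the 133 combinations of a slice and an autosome, 57 were cut, 27 had a coverage of 5% or more, and 32 had 3 or fewer positive windows, of which 15 had none. Coverage of 1% or more was found in 80 combinations, and 25 of those had no long stretch. Conversely, 2 combinations were cut at a coverage under 1%, chromosome 6 in f13e1 (18 windows) and chromosome 16 in f14c2 (23 windows).

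Chromosomes 2 and 5 were cut in the most slices, 5 of 7 each. Chromosome 2 was cut in f13a6, f13e1, f14c2, f14f2 and f14g4, and chromosome 5 in f13e1, f13e5, f13g3, f14c2 and f14g4. Chromosome 7, one of the more gene-dense autosomes with 13.6 protein-coding gene starts per Mb, was cut in none. Chromosome 11, with the same density of 13.6, was cut in 3. Chromosome 7 also held the most windows with unknown bases of any autosome (295), and their part in this was not tested. The highest coverage of chromosome 7 was 2.91%, in f13a6. Its longest stretch was 4 windows in f13a6, f13g3, f14c2 and f14g4 and 3 in f13e1, just short of the limit. A stretch of 3 windows would count it as cut in those slices, and f13e5 and f14f2 held no window on it. Chromosomes 12, 15, 16 and 18 were cut in 2 slices each, chromosomes 6, 9 and 17 in 4, and the other 9 autosomes in 3. Chromosomes 10 and 18 were nearly empty, with 3 or fewer windows, in 4 of the 7 slices.

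The number of slices that cut an autosome went only loosely with its length. Across the 19 autosomes, as a description over points that share the same 7 slices, it had a Pearson r of 0.24 (Spearman rho 0.33) with chromosome length, 0.048 (0.17) with GC content and 0.0029 (0.35) with the density of protein-coding genes. Length and number of windows go together, and their parts were not tested.

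The positive windows of the 7 slices formed fewer separate stretches than placement at random within each chromosome gives. A stretch is a run of consecutive positive windows, and its expected number was computed exactly, with the number of positive windows of each chromosome kept. Over the autosomes the observed numbers were 1317 in f13a6 (1754 expected), 1658 in f13e1 (2500), 897 in f13e5 (1096), 1743 in f13g3 (2448), 1302 in f14c2 (1719), 623 in f14f2 (1068) and 991 in f14g4 (1369). Observed over expected was 0.716 ± 0.075 (SD, n = 7), lowest in f14f2 (0.583) and highest in f13e5 (0.818). All 89 combinations of a slice and an autosome with 20 or more positive windows had fewer stretches than expected.

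Most stretches were nevertheless a single window. Single windows made up from 57.1% of stretches in f14f2 to 78.9% in f13e5, with a median of 71.3%. Long stretches, of 5 windows or more, numbered 19 in f13a6, 49 in f13e1, 4 in f13e5, 33 in f13g3, 18 in f14c2, 34 in f14f2 and 21 in f14g4, 178 in all, against an expectation of between 0.0188 in f13e5 and 0.151 in f13e1. None of the 8 slices with fewer windows held a long stretch, and their longest was 4 windows. The slices were chosen on the number of windows, so this contrast is a description and was not tested.

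**Figure D3:**
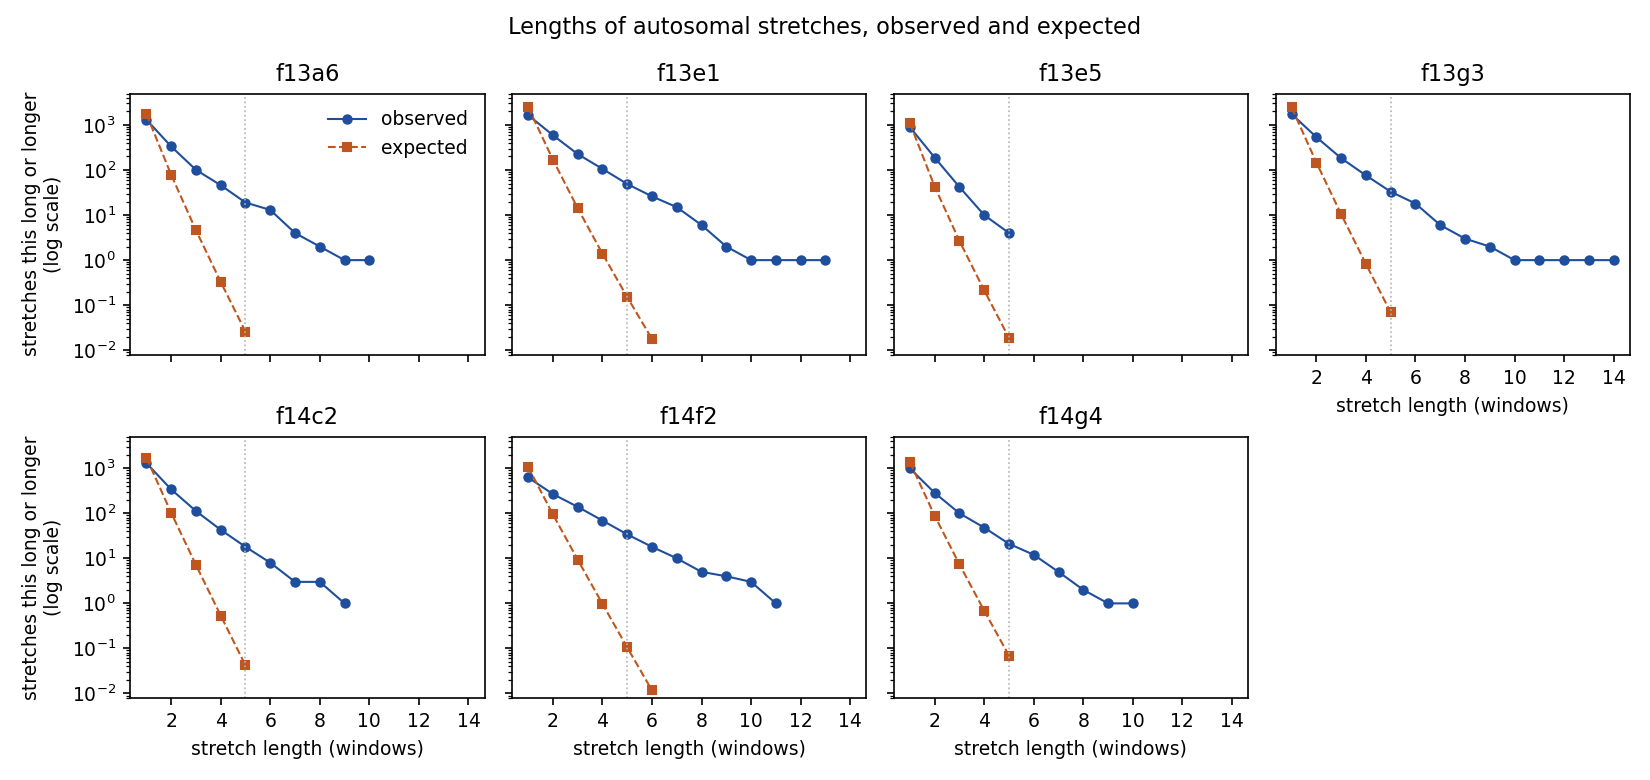
Number of autosomal stretches of at least a given length (y, log scale) against stretch length in 40 kb windows (x) in each of the 7 slices, with observed counts (circles) and counts expected from random placement within each chromosome (squares, drawn down to 0.01). The observed counts stay above the expected ones from 2 windows upward in every slice, and the dotted line marks the 5 windows that define a long stretch.

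The longest stretches of the slices lay on chromosomes 1, 3, 5, 6, 8, 9, 13 and 19. In f13g3 it was 14 windows (560 kb) at chr1:161160001-161720000 on mm9, and it held Rfwd2, a ubiquitin ligase also known as Cop1, Gm10530 and the start of Tnr, which encodes the neural matrix protein tenascin R. In f13e1 it was 13 windows (520 kb) at chr9:49040001-49560000, with 7 protein-coding genes including Drd2, the dopamine D2 receptor, Ttc12, Gm11149 and the larger part of Ncam1, a neural cell adhesion molecule. No other of the 7 slices had a positive window in the stretch of f13e1, and f13e1 had 3 in that of f13g3.

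In f14f2 the longest stretch was 11 windows (440 kb) at chr19:4480001-4920000, and it overlapped 15 protein-coding genes, the longest of them Pcx (pyruvate carboxylase), Gm960, Spnb3 (a beta spectrin) and Rbm14 (an RNA-binding protein). In f14g4 it was 10 windows (400 kb) at chr8:68720001-69120000, over the end of March1, a membrane-bound ubiquitin ligase, and over 1810029B16Rik and Tktl2, a transketolase-like gene. In f13a6 it was also 10 windows, at chr9:46520001-46920000, and it overlapped no protein-coding gene. These stretches thus ran through gene-dense and gene-free sequence alike, with GC contents of 46.4%, 39.3% and 44.6% in that order.

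In f14c2 the longest stretch was 9 windows (360 kb) at chr6:5840001-6200000, across the end of Dync1i1, a dynein intermediate chain, and the whole of Slc25a13, a mitochondrial aspartate-glutamate carrier. Of the 4 stretches of f13e5, each of 5 windows, the 3 described here lay inside or at the edge of a long gene, at chr3:151120001-151320000 (Eltd1, an adhesion receptor), chr13:29520001-29720000 (Cdkal1, a tRNA-modifying enzyme) and chr13:76600001-76800000 (Mctp1).

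The stretches themselves lay close to one another. The median gap between neighbouring stretches on an autosome was 4 windows in f13a6 (17 expected), 3 in f13e1 (11), 7 in f13e5 (21), 4 in f13g3 (12), 4 in f14c2 (12), 3 in f14f2 (8) and 3 in f14g4 (12). In distance these are gaps of 120 to 280 kb where 320 to 840 kb were expected. Observed over expected was 0.305 ± 0.052 (SD, n = 7).

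Stretches separated by no more than 25 negative windows (1 Mb) were joined into segments, to see at how many places a slice met its chromosomes. The slices had 194 (f13a6), 178 (f13e1), 233 (f13e5), 240 (f13g3), 168 (f14c2), 75 (f14f2) and 109 (f14g4) autosomal segments, against exact expectations of 671, 597, 500, 649, 463, 166 and 378 in the same order. The ratio was 0.361 ± 0.075 (SD, n = 7). Of the 89 combinations with 20 or more windows, 87 had fewer segments than expected. The exceptions were 2 of the most covered chromosomes, chromosome 11 in f13e1 (18 segments, 10.5 expected) and chromosome 4 in f13g3 (27 segments, 26.96 expected). At such coverage random placement leaves few gaps over 25 windows, so the expected number of segments is itself lower. Both still had fewer stretches than expected (234 against 353.5 and 240 against 343). Their largest gaps were also larger than expected (9.92 against 1.81 Mb and 10.12 against 2.51 Mb). Other highly covered chromosomes stayed below, such as chromosome 19 in f14f2 (5 segments, 5.88 expected) and chromosome 8 in f14g4 (16 segments, 16.75 expected).

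Segments of at least 10 positive windows numbered 442 on the autosomes, with a median length of 2.88 Mb and a median of 27.3% of their windows positive. They held 78.7% ± 14.4 (SD, n = 7) of the positive windows of a slice's autosomes, from 48.3% in f13e5 to 92.0% in f14f2. The densest was chr9:13680001-14280000 in f13e1, with 11 of 15 windows positive (73.3%). Dense segments of several Mb were chr19:43960001-47520000 in f14f2, with 48 of 89 windows positive (53.9%), and chr4:11520001-17840000 in f13e1, with 75 of 158 (47.5%). The longest was 15.5 Mb, at chr13:20440001-35960000 in f13e5, and it was thin, with 67 of 388 windows positive (17.3%).

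A few chromosomes were met at only 1 or 2 places. All 75 positive windows of chromosome 4 in f13e1 lay in 1 segment of 6.32 Mb (45.5 segments expected), and all 25 of chromosome 16 lay in 1 segment of 2.72 Mb at chr16:38600001-41320000 (19.4 expected). In f14g4, 63 of the 64 windows of chromosome 6 lay in 7.96 Mb at chr6:8120001-16080000, and the remaining window was 87.5 Mb away. That window, at chr6:103560001-103600000, was also positive in f13a6, again as the only window of its segment. It was positive in f13e1 too, as the last positive window of chromosome 6. The 23 windows of chromosome 1 in f13a6 fell in 3 segments, 1 at chr1:25280001-27160000 and 2 near the distal end, with 165.8 Mb without a positive window between them.

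**Figure D4:**
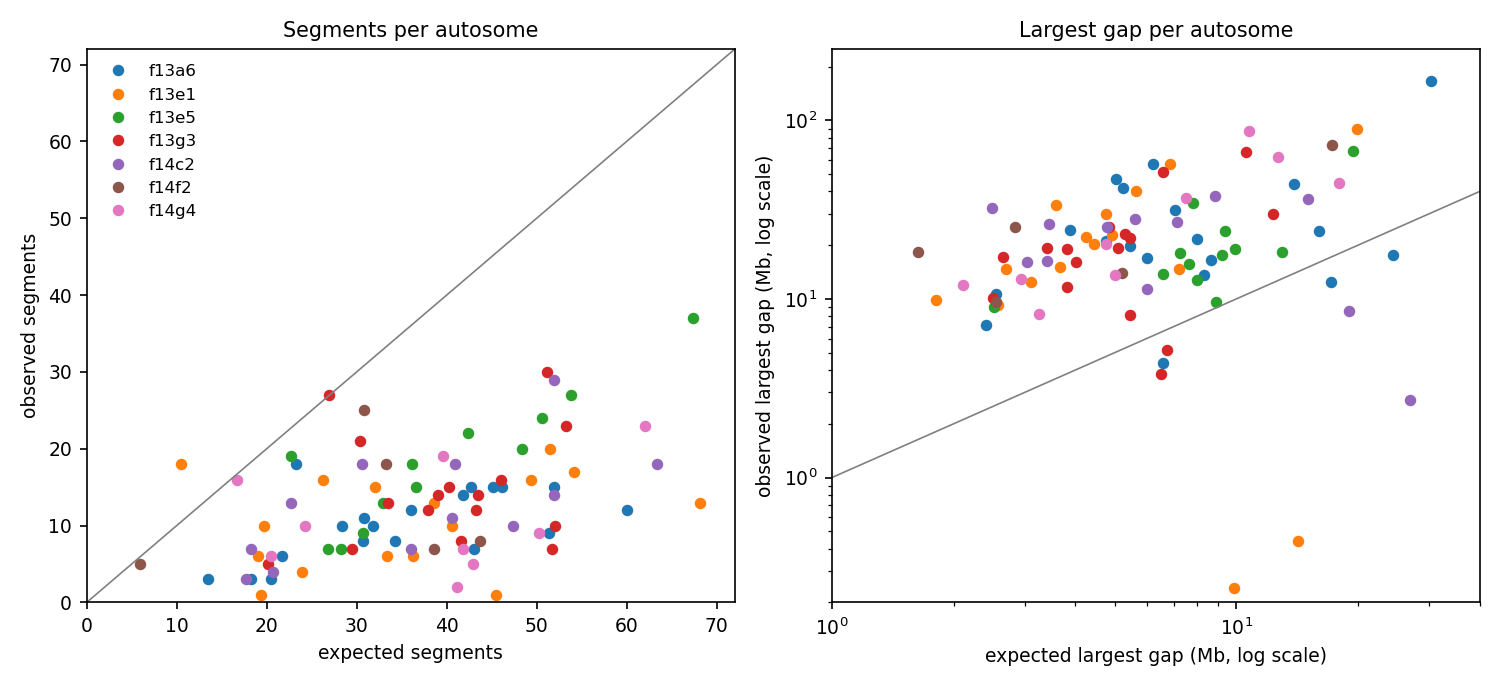
Observed against expected number of segments (left) and observed against expected largest gap between neighbouring stretches in Mb (right, log scales) for the 89 combinations of a slice and an autosome with 20 or more positive windows, coloured by slice, with the line of equality. Of the points, 87 lie below the line on the left and 80 lie above it on the right.

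The largest gap between stretches of an autosome was larger than expected in 80 of the 89 combinations, with a median of 19.2 Mb against 5.65 Mb. By slice, the median largest gap was 21.1 Mb in f13a6, 17.7 Mb in f13e1, 17.9 Mb in f13e5, 19.2 Mb in f13g3, 25.8 Mb in f14c2, 18.3 Mb in f14f2 and 20.3 Mb in f14g4. The windows of an autosome nevertheless spanned a median of 75.1% of its length from the first to the last, where 98.4% was expected. A single distant window can set this span, as on chromosome 6 in f14g4, where it was 63.9%. In 88 of the 89 combinations the span was smaller than expected.

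The span between the first and the last long stretch of a cut autosome varied far more between slices. Its median over the cut autosomes was 5.53% of chromosome length in f13a6, 19.98% in f13e1, 0.131% in f13e5, 4.97% in f13g3, 24.4% in f14c2, 55.5% in f14f2 and 7.55% in f14g4. Many cut autosomes held a single long stretch, which gives a span of no more than that stretch. In f14f2 the long stretches of chromosome 19 spanned 67.7% of it, those of chromosome 4 59.5% and those of chromosome 2 55.5%. In f13e1 the 9 long stretches of chromosome 9 spanned 69.7% of it.

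Co-cutting was counted as pairs of autosomes cut in the same slice, out of 171 pairs. The slices cut 28 (f13a6), 91 (f13e1), 3 (f13e5), 66 (f13g3), 28 (f14c2), 10 (f14f2) and 21 (f14g4) pairs. These numbers follow from how many autosomes each slice cut. With windows placed at random within chromosomes, the exact expectation is 0.000764 pairs at the median of the 7 slices and 0.00484 at most, in f13e1. Because such placement keeps the windows of each chromosome, co-cutting counted from coverage alone could not change under it.

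The pair cut together most often was chromosomes 5 and 6, in 4 slices (f13e1, f13g3, f14c2 and f14g4). Each slice that cut chromosome 6 also cut chromosome 5, and the product of their separate frequencies gives 2.86. Some of these cuts rest on 1 long stretch near the limit. On chromosome 6 it was 5 windows in f13e1 and 6 in f13g3 and f14g4, and on chromosome 5 it was 5 in f13g3. A further 18 pairs were cut together in 3 slices, 67 in 2, 55 in 1 and 30 in none. The 30 include every pair with chromosome 7, which no slice cut, so that these pairs could not be cut together. Chromosomes 4 and 14 were cut in the same 3 slices (f13e1, f13g3 and f14f2), where the product of their separate frequencies gives 1.29. Chromosomes 1 and 13 were cut in 3 slices each and, with a stretch of 5 windows required, never together, where the same product gives 1.29. Both still held many windows in f13e1 (158 and 145) and in f13e5 (148 and 280). The longest stretch on chromosome 1 was 4 windows in each of these slices. Of the 171 pairs, 154 lay within 1 slice of the product of the separate frequencies, among them every pair with chromosome 7. Another 14 lay above and 3 below. The product treats the 7 slices as alike, although they cut from 3 to 14 autosomes, so that pairs lie above it on average. With 7 slices that differ in the number of autosomes they cut, no pair was tested.

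Of 22 genes of the pluripotency network of embryonic stem cells, 5 had their transcription start in a positive window of at least 1 of the 7 slices (22.7%), beside 20.1% of all protein-coding genes. Stat3, which carries the signal of leukaemia inhibitory factor, was positive in f13a6, inside a stretch of 5 windows at chr11:100760001-100960000, and in f13e1, as a single window. Klf2, a Krüppel-like transcription factor, was positive in f14g4 within a stretch of 4 windows and a segment with 107 positive windows at chr8:67720001-81720000. Esrrb, an orphan nuclear receptor, and Tdgf1, the Nodal co-receptor Cripto, were positive in f14c2, and Dppa4, a chromatin-associated protein of pluripotent cells, in f13a6. The remaining 17, among them Pou5f1, Sox2 and Nanog, were negative in all 7 slices, although 19 of the 22 (86.4%) had a positive window within 1 Mb in at least 1 slice. That share was 87.9% over all protein-coding genes. The exceptions in the list were Lin28a, Fgf4 and Myc.

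Counted over genes and slices, 6 of 154 pluripotency starts were positive (3.90%), beside 3.12% of the starts of all 22350 protein-coding genes on these chromosomes. Genes of a cluster can share a window, so that they are not separate observations, and clusters were positive in part of their genes only. Of 1087 olfactory receptor genes, 3.73% of starts were positive over the 7 slices, from 85 genes in f14f2 to 0 in f14g4. In f14f2, 66 of them lay in 33 positive windows of the large cluster at chr2:85440001-90160000, and 12 on chromosome 19. Of the 55 genes of the Hist1 histone cluster on chromosome 13, 9 were positive in f13e5, in 3 windows, 3 in f13a6 and 0 in the other slices. Over genes and slices this was 12 of 385 starts (3.12%), the same share as over all protein-coding genes. Starts of Hox genes were positive once in 280, at Hoxd1 in f13e5, and those of clustered protocadherin genes 0 times in 168. Ribosomal protein genes, which are scattered over the genome, reached 1.79% and vomeronasal receptor genes 1.43%. These shares are descriptions of lists whose members share windows and were not tested.

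GC content, gene density and position along the chromosome were not used to choose the slices, and they were compared with all windows of the same autosome that hold no unknown bases. The GC content of positive windows differed from that of their autosomes by -0.0701 percentage points in f13a6, -0.291 in f13e1, -0.206 in f13e5, 0.0146 in f13g3, 0.150 in f14c2, 0.701 in f14f2 and -0.175 in f14g4. The mean difference was 0.0176 ± 0.335 (SD, n = 7), with 3 of 7 slices above 0 (two-sided exact test over all sign flips, p = 0.953, adjusted p = 0.953 over 6 tests). The smallest p that 7 slices allow in this test is 0.0156. Within the name prefixes, whose meaning is not stated, the mean was -0.138 for the 4 f13 slices and 0.225 for the 3 f14 slices.

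The density of protein-coding gene starts in positive windows differed from that of their autosomes by 0.351 ± 1.64 per Mb (SD, n = 7, same exact test, p = 0.922, adjusted p = 0.953). The mean was positive through f14f2 alone, where positive windows held 13.8 gene starts per Mb and their autosomes 9.85. In the other slices the difference ran from -0.808 in f14g4 to 0.382 in f14c2, and without f14f2 the mean was -0.254 (p = 0.188, exact). The mean was -0.275 for the f13 slices and 1.19 for the f14 slices.

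The position of positive windows, from 0% at the centromeric end of the known sequence to 100% at the distal end, lay 0.526 ± 7.89 percentage points (SD, n = 7) beyond the middle (same exact test, p = 0.906, adjusted p = 0.953). The windows of f14f2 (10.6), f13e5 (8.81) and f13g3 (5.84) lay towards the distal end, and those of f14g4 (-8.97), f14c2 (-7.54), f13e1 (-3.24) and f13a6 (-1.85) towards the centromeric end. The mean was 2.39 for the f13 slices and -1.96 for the f14 slices. Mouse chromosomes carry the centromere at 1 end, and the first 3.0 Mb of each of the 19 autosomes is unknown sequence in this build and held no positive window in the 7 slices.

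Against the 8 slices with fewer positive windows, the 7 slices differed by -0.441 percentage points in the GC measure (0.0176 ± 0.335 against 0.459 ± 0.717, SD, n = 7 and 8, exact permutation test, two-sided p = 0.160), by -0.425 per Mb in gene starts (p = 0.580, exact) and by -1.93 percentage points in position (p = 0.750, exact). After adjustment over the 6 tests every p was 0.953. Differences of this size lay within the spread between slices, which in GC content and position was wider among the 8, where 2 slices hold under 100 windows.

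**Figure D5:**
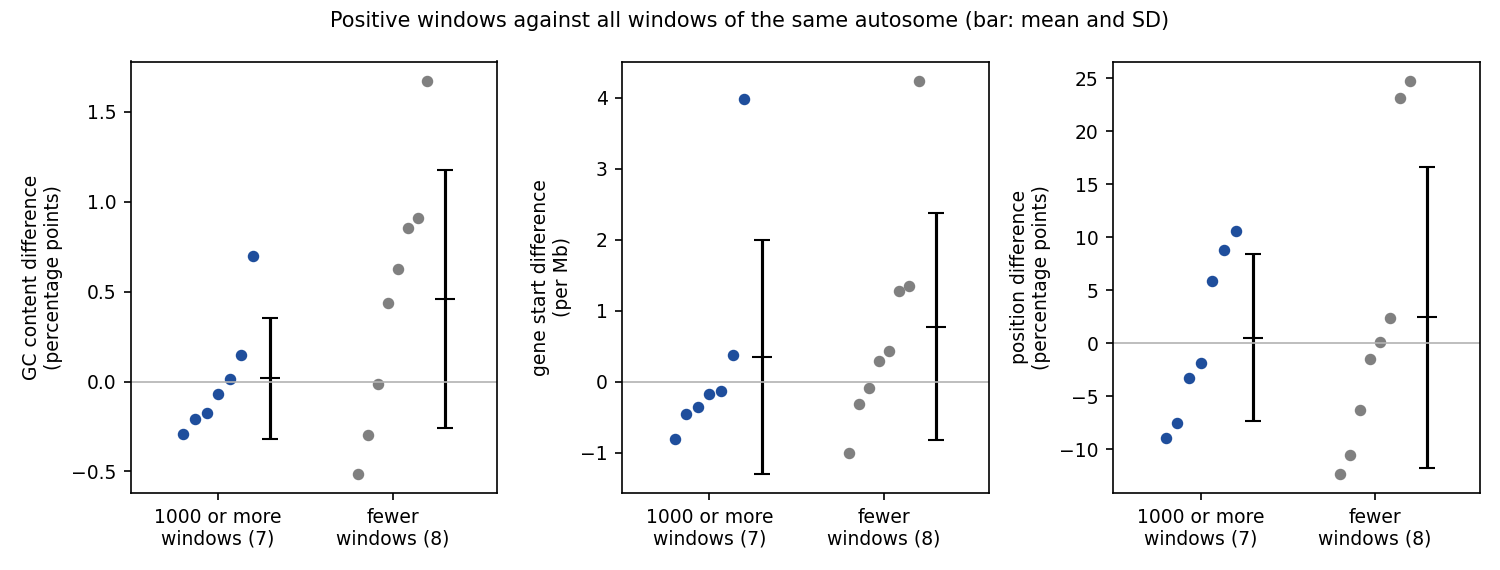
Difference between the positive windows of a slice and all windows of the same autosome in GC content (left), protein-coding gene starts per Mb (middle) and position along the autosome (right), with 1 point for each slice, for the 7 slices with 1000 or more windows and the 8 with fewer. Bars show mean and SD. In gene starts the point of f14f2, at 3.98 per Mb, lies above the other 6 of its group, and f13d5 of the other group lies at 4.23.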

How the data were processed

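The authors deposited a segregation table of 15 libraries, in which each of 68162 windows of 40 kb holds 1 where it was called positive and 0 where it was not. Per the labels, reads were aligned to mm9 with Bowtie2 (2.1 in the submitters' processing notes). The methods give removal of duplicates with Samtools and calling of windows by GAMtools at 4 reads for multiplex-GAM, and whether that threshold was used here is not stated. The calls, of which the unit is a presence call, carry no read counts.

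Calls were used as deposited, and no column was left unmapped. Slices with 1000 or more positive windows were kept, and these members and the gene lists were chosen with earlier results of these data known. Stretches, segments (joined across up to 25 negative windows), gaps, spans and cut autosomes (a stretch of 5 windows) were counted on 61816 autosomal windows. Their expectations under random placement within each chromosome were computed exactly in closed form, with no redraws, and checked on simulated data. Spans and largest gaps were summarised for autosomes with 20 or more positive windows.

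GC content and gene starts came from NCBI Build 37 and the GENCODE annotation of that build, whose chromosome ends equal those of the table, over 59585 windows without unknown bases. Exact sign-flip and permutation tests over slices were two-sided with Benjamini-Hochberg adjustment over 6 tests at 0.05. Named genes are those of the pluripotency list with a positive start and up to 4 protein-coding genes, by length, in the longest stretch of each slice, with Hoxd1 and the clusters of lists named after their values were seen. The content of 1 longest stretch of f13e5 is not reported here. Python 3.11.15, numpy 2.4.6, pandas 2.3.3, scipy 1.17.1 and matplotlib 3.10.9 were used.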

Additional observations from a re-analysis of the deposited data

Results flagged for a closer look

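Among 32 quantities examined over the 7 slices, 2 had a slice that stood far from the others, and chance alone marks about 1 group in 20. The difference in gene starts between positive windows and their autosomes was 3.98 per Mb in f14f2, where the other 6 slices lay between -0.808 and 0.382. The coverage of chromosome 16 was 5.41% in f13a6, where the median of the 7 slices was 0.936%.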

How the results depend on the processing

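The number of autosomes counted as cut depends on the definition. Its median over the 7 slices was 8 with a stretch of 5 windows, 12 with a stretch of 3, 1 with a stretch of 10, 12 with stretches joined across 1 negative window, 16 with any positive window, 7 with a coverage above that of all autosomes of the slice and 11 with a coverage of 1% or more, a definition added after the data were seen. The median number of pairs cut together was 28 and became 66, 0, 66, 120, 21 and 55 in the same order. Observed over expected, the median over slices for stretches was 0.724 and became 0.573 with stretches joined across 1 negative window, and that for the gap was 0.333 and became 0.429 with the same joining and 0.174 with placement over all autosomes. For segments it was 0.363 and became 0.559 with gaps of up to 50 windows allowed, also added after the data were seen. All of these ratios stayed below 1. The median span on cut autosomes was 7.55% of the chromosome for long stretches, 57.4% for stretches of 3 windows or more and 78.9% for all positive windows.

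None of the 6 tests passed the threshold under any alternative. The lowest unadjusted p was 0.0857 (exact permutation test of gene starts against the other slices, f13 slices only). The sign-flip tests within the 4 f13 or the 3 f14 slices could not pass, because so few slices allow no p under 0.05. For gene starts in the f13 slices, p was 0.125 (exact sign-flip test), the smallest that 4 slices allow. The mean differences lay near 0 and turned sign in several settings. The GC difference was -0.033 with single windows and -0.138 in the f13 slices. The gene start difference was -0.275 in the f13 slices, and that against the other 8 slices was 0.789 within f14. The position difference was -0.356 with windows in stretches of 2 or more and -1.96 in the f14 slices, and that against the other 8 slices was 5.22 without slices under 100 windows and 1.75 within f13. Leaving out 1 of the 7 slices at a time gave -0.0963 to 0.069 for GC content (-0.555 to -0.390 against the other 8), -0.254 to 0.544 for gene starts (-1.03 to -0.231) and -1.16 to 2.11 for position (-3.61 to -0.350). The sign turned without f14f2 in all 3 measures, without f14c2 in GC content (-0.0045) and without f13e5 (-0.856) or f13g3 (-0.360) in position.

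No paired analysis was possible because all 15 slices belong to 1 group. Read counts behind the calls were not used here, so how far depth sets the number of positive windows or the gaps inside a patch was not tested. Windows absent from a slice and windows present but not detected cannot be told apart here. Window size limits stretches to steps of 40 kb.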

Other observations

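The window of the mitochondrial genome was positive in all 15 slices, the 7 with 1000 or more positive windows and the 8 with fewer, including f13d5 with 14 positive windows in all. Chromosome Y held 1 positive window in f14f2, 3 in f14g4 and 0 in the other 5 of the 7 slices.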
